A study of Mus musculus with 36 samples.

Results

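The unfolded protein response was followed through 10 genes in the livers of THRB WT and THRB KO mice over the day. The genes were Xbp1, Atf4, Ddit3, Hspa5, Hsp90b1, Dnajb9, Herpud1, Creld2, Sdf2l1 and Pdia4, and they were taken by symbol from a deposited table of gene counts with 54532 genes. All 10 passed the filter on low counts, which left 17994 genes for testing. Ddit3 had a further row of 105 bases with a count of 0 in the 36 libraries, and only its main row was used.

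The unfolded protein response is the reaction of a cell to proteins that fail to fold in the endoplasmic reticulum (ER). It is started by the ER membrane sensors IRE1, PERK and ATF6, whose signals reach the nucleus as the transcription factors XBP1, ATF4 and the cleaved part of ATF6, and it raises chaperones, folding enzymes and the machinery that removes misfolded proteins. In liver, which secretes most plasma proteins and receives nutrients in bouts, genes of this response are known to follow feeding and the time of day.

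Whole livers were taken from adult male mice, 2 to 3 months old, that lived in 12 h of light and 12 h of darkness with chow ad libitum. THRB WT animals were heterozygous (THRB +/-) and THRB KO animals homozygous (THRB -/-) for the same constitutive Thrb allele (B6.129S1-Thrbtm1Df/J, on a C57Bl/6NCrl background), so the controls also carried 1 mutant copy. Each of 12 groups held 3 mice, sampled at zeitgeber time (ZT, hours after lights on) 2, 6, 10, 14, 18 or 22, and libraries are named here by time and by the letter a, b or c of the mouse. Library totals ran from 29063273 to 42530551 counts.

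Levels below are in CPM, read counts scaled to the total of the library with edgeR's TMM factors. In bulk liver, fewer cells of a type and less RNA per cell cannot be told apart. The labels were checked on genes outside the set. The 8 clock genes examined had a 24-h rhythm in both genotypes, and Dio1, a target of thyroid hormone, was at 94.4 ± 32.0 CPM in THRB WT and 48.3 ± 12.3 CPM in THRB KO livers (SD, n = 18 each; log2 fold change -0.97, edgeR adjusted p = 4.19e-05). The Thrb transcript itself was still counted at 28.9 CPM in THRB WT and 31.5 CPM in THRB KO (edgeR adjusted p = 0.309), so its level says nothing of the receptor. Hepatocyte markers summed to between 68769 and 100213 CPM per library.

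At ZT18 the libraries of mouse a stood apart from those of mice b and c in both genotypes for most of the 10 genes. The ratio of mouse a to the mean of b and c had a median over the genes of 2.20 in THRB WT (0.92 for Xbp1 to 3.45 for Creld2) and 1.86 in THRB KO (1.06 to 3.10), against medians of 1.01 and 1.0 over the 9470 genes with a mean of at least 5 CPM. Among the clock genes examined, Per2, Per3 and Nr1d1 were also highest in mouse a at ZT18 in both genotypes. Per2 was at 109 against 76.0 and 59.7 CPM in THRB WT and 113 against 85.9 and 64.1 CPM in THRB KO. Arntl was instead lowest in mouse a, at 15.1 against 15.9 and 19.9 CPM in THRB WT. In THRB KO it was at 14.6 against 19.2 and 23.6 CPM. The place of mouse a for Npas2, Dbp, Per1 and Cry1 differed between the genotypes. The hepatocyte marker sums at ZT18 were also highest in mouse a, at 88550, 82742 and 85267 CPM in mice a, b and c of THRB WT and at 97455, 86723 and 87766 CPM in those of THRB KO. The sum of 10 Kupffer cell and macrophage markers stood out in mouse b of THRB WT instead, at 698 CPM against 295 and 314 CPM in mice a and c, and was at 271, 242 and 273 CPM in THRB KO. Time-of-day results are therefore also given without these 2 libraries.

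The promoters of 4 genes carry letters of known ER stress elements and are shown because their transcripts are compared below. The ER stress response element was searched as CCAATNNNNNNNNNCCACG and its second form as ATTGGNCCACG, on both strands, in RefSeq windows that run from 250 bases before to 50 after the start site (GRCm38.p6). The 250 bases before the start site are printed 5′ to 3′ on the strand of the gene, with the matching letters in capitals. They lie at chr2:34771840-34772089 (+ strand) for Hspa5, chr10:86705445-86705694 (- strand) for Hsp90b1, chr15:88819396-88819645 (+ strand) for Creld2 and chr8:94386179-94386428 (+ strand) for Herpud1.
Hspa5: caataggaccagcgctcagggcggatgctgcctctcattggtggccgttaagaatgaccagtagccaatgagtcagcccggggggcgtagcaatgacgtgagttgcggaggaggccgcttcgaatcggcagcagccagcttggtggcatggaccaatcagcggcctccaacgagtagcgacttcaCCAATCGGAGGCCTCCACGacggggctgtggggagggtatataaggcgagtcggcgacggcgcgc
Hsp90b1: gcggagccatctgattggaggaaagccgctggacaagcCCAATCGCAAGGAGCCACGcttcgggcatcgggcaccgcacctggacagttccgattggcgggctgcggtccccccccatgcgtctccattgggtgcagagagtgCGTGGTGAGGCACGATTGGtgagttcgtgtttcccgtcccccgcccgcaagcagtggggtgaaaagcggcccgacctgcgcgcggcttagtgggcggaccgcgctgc
Creld2: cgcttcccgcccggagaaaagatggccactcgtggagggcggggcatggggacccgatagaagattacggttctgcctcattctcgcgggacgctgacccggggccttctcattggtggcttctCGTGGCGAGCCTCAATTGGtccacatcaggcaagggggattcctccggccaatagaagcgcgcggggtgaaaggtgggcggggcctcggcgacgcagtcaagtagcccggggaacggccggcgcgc
Herpud1: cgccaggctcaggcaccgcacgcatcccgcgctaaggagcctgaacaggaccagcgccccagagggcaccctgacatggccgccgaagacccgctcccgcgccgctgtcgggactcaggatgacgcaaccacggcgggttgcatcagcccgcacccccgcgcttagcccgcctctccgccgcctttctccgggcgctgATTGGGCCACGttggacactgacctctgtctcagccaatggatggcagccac
The first element was found in Hspa5 at -65 to -47, in Hsp90b1 at -212 to -194 and, on the reverse strand, at -107 to -89, and in Creld2 on the reverse strand at -126 to -108. It is rare, with a match in 0.119% of 32851 promoters. The second form matched in Herpud1 at -52 to -42 and in 0.0365% of all promoters. The letters TGACGTGG of the unfolded protein response element (0.676% of promoters) and TGATGNAAT of the C/EBP-ATF response element (0.965%) were in none of the 10 windows, and the E-box CACGTG (7.15%) was in that of Dnajb9 alone. The other genes, Xbp1, Atf4, Ddit3, Sdf2l1 and Pdia4, had none of these letters in their windows. Only these exact letters were searched, so the absence of a match does not show that a looser form of an element is absent.

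Per length of transcript, Hspa5 and Herpud1 ranked at the top of the set. In THRB WT livers the mean over the day was 224 ± 109 CPM per kb for Hspa5, 158 ± 80.2 for Herpud1, 123 ± 33.8 for Hsp90b1 and 87.9 ± 33.3 for Pdia4 (SD, n = 18). Ddit3 was the lowest at 6.21 ± 3.35 CPM per kb, behind Dnajb9 at 28.9 ± 16.5. Neighbours in this order overlapped within 1 SD, with the exception of Dnajb9 and Ddit3. The order was the same in THRB KO livers down from Hspa5 at 197 ± 93.3 to Ddit3 at 5.61 ± 2.60 CPM per kb, with the exception of Creld2 (38.7 ± 32.6) and Sdf2l1 (40.8 ± 25.4), which changed places within their spread.

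To test whether the genes followed the time of day, the 6 sampling times were compared within each genotype, first with no shape assumed. In THRB WT livers 9 of the 10 genes differed between sampling times (edgeR quasi-likelihood test, Benjamini-Hochberg adjusted p from 2.68e-05 for Sdf2l1 to 0.0134 for Atf4), against 26.4% of all tested genes, and Xbp1 did not pass (adjusted p = 0.802). For THRB KO livers 8 genes passed (2.36e-04 for Pdia4 to 0.0184 for Hsp90b1), against 24.9% of all genes, and Xbp1 (0.511) and Ddit3 (0.116) did not. A 24-h cosine curve was found in 9 genes in THRB WT livers (1.73e-06 for Herpud1 to 0.0155 for Dnajb9), against 35.1% of all genes. It was found in 7 genes in THRB KO livers (3.85e-05 for Pdia4 to 0.00311 for Atf4), against 31.5% of all genes, and Xbp1 (0.648), Ddit3 (0.0675) and Dnajb9 (0.262) missed the threshold. That these genes passed in 1 genotype only does not show a difference, which is tested further down. The 10 genes were chosen with earlier results of these data known, so the shares over all genes are a background and no test of the set.

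DESeq2 added Ddit3 to both counts in THRB KO livers, and so did testing without the filter for the sampling times. Without the ZT18 libraries of mouse a, the same 9 and 7 genes had a 24-h curve in THRB WT (adjusted p up to 0.0219) and THRB KO (up to 0.0294), and the counts of genes that differed between sampling times stayed at 9 and 8. With 2 mice per group some calls were lost. The 24-h curve in THRB KO livers fell to 3 genes without mice a (Hspa5, Hsp90b1, Creld2 and Sdf2l1 lost) and to 5 without mice c (Atf4 and Hspa5 lost). The curve in THRB WT livers was lost for Hspa5 and Hsp90b1 without mice a, for Atf4 without mice b, and for Atf4, Ddit3 and Dnajb9 without mice c. Hsp90b1 and Atf4 no longer differed between sampling times in THRB WT livers whichever letter was left out, and Dnajb9 without b and Ddit3 without c were lost too. Sampling times in THRB KO livers no longer differed for Hsp90b1 and Creld2 without mice a, for Atf4 and Dnajb9 without mice b, and for Hsp90b1 and Dnajb9 without mice c. Herpud1 and Pdia4 passed each of these tests in both genotypes.

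**Figure D1:**
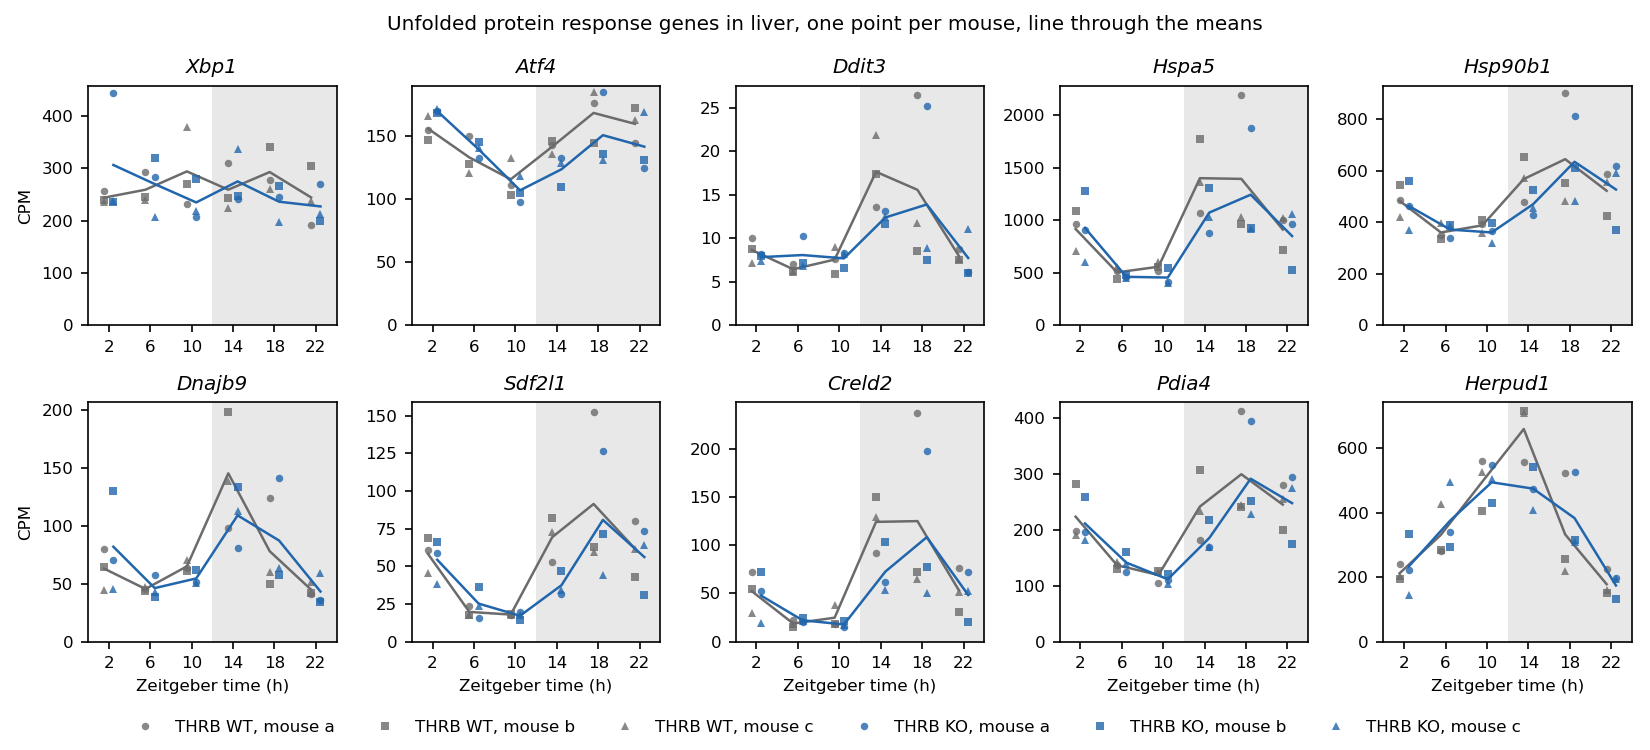
CPM (y axis, linear, from 0) of each gene against zeitgeber time in hours (x axis) for 18 THRB WT (grey) and 18 THRB KO (blue) livers, 1 point per mouse with the shape giving its letter, lines through the group means and darkness shaded. Most genes were low at ZT6 and ZT10 and high in the dark, the circles of mouse a lay far above the others at ZT18, and Xbp1 stayed level.

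Among the transcription factors, Xbp1 did not follow the time of day. Xbp1 (chromosome 11, 5520659 to 5525893) encodes the factor whose mRNA IRE1 splices into its active form; the counts join spliced and unspliced mRNA, so they do not give its activity. THRB WT livers had 257, 239 and 237 CPM in mice a, b and c at ZT2 and at 309, 243 and 225 CPM at ZT14. THRB KO livers had 445, 236 and 239 CPM at ZT2 and at 241, 247 and 337 CPM at ZT14. Sampling times that were neighbours in the order of their means overlapped throughout, and 1 THRB KO mouse at ZT2 had the highest level of all 36. The means of the sampling times spanned 1.21-fold in THRB WT and 1.35-fold in THRB KO.

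Atf4 (chromosome 15, 80255184 to 80257541), the factor that PERK signaling raises through translation of its mRNA, was lowest late in the light phase. At ZT10 it was at 111, 104 and 133 CPM in THRB WT and at 98.0, 105 and 119 CPM in THRB KO livers. In THRB WT it rose to 176, 145 and 185 CPM at ZT18. In THRB KO the highest mean was at ZT2, with 170, 168 and 172 CPM. The highest and lowest groups did not overlap in either genotype, with folds of 1.45 and 1.59 between their means.

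Ddit3 (chromosome 10, 127290774 to 127296288) encodes CHOP, a factor downstream of ATF4 that is linked to cell death under lasting stress. It was a low transcript in these livers, with 192 to 788 counts per library. Its level in THRB WT livers was 7.02, 6.20 and 6.14 CPM at ZT6 and 13.6, 17.4 and 21.9 CPM at ZT14, so that every mouse of ZT14 lay above those of ZT6. Its level in THRB KO livers was 10.2, 7.17 and 6.84 CPM at ZT6 and 13.1, 11.7 and 12.4 CPM at ZT14, again with every mouse of ZT14 above those of ZT6. At ZT18 both genotypes had 1 high mouse, with 26.4, 8.51 and 11.7 CPM in THRB WT and 25.2, 7.49 and 8.94 CPM in THRB KO. Its exons share 68 bases with Mars and 13 with Gm4189 on the opposite strand, and since the libraries carried no strand, reads in those bases cannot be assigned.

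The chaperones rose in the dark phase. Hspa5 (chromosome 2, 34771970 to 34777547), which encodes BiP, the main chaperone of the ER, was at 521, 441 and 551 CPM at ZT6 and at 1071, 1768 and 1358 CPM at ZT14 in THRB WT livers. The same gene was in THRB KO livers at 457, 477 and 452 CPM at ZT6 and at 878, 1307 and 1030 CPM at ZT14. In both genotypes the values at ZT6 and ZT10 lay below all values of the other 4 times, except that 1 THRB KO mouse at ZT22 (523 CPM) was under the highest of ZT10 (548 CPM). At ZT18 the levels were 2185, 963 and 1028 CPM in THRB WT and 1878, 927 and 921 CPM in THRB KO. The highest mean was 2.77-fold the lowest in THRB WT and 2.73-fold in THRB KO, the latter 2.35-fold without mouse a of ZT18.

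Hsp90b1 (chromosome 10, 86690209 to 86705509) encodes GRP94, the HSP90 of the ER. It moved less, from 351, 334 and 398 CPM at ZT6 to 901, 553 and 484 CPM at ZT18 in THRB WT livers. Levels in THRB KO livers went from 366, 398 and 320 CPM at ZT10 to 813, 612 and 482 CPM at ZT18. The highest and lowest groups did not overlap, and the folds of 1.79 and 1.76 between their means became 1.57 and 1.51 without mouse a of ZT18. Its exons share 415 bases with the pseudogene 1810014B01Rik on the opposite strand and 84 with Gm15344, so a part of its reads could belong to these.

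Dnajb9 (chromosome 12, 44205559 to 44210326) encodes ERdj4, a co-chaperone of BiP that favours the removal of misfolded proteins. It was highest at ZT14, with 98.5, 199 and 139 CPM in THRB WT and 81.1, 133 and 113 CPM in THRB KO livers. It was lowest at ZT22, with 41.0, 41.7 and 51.9 CPM in THRB WT and 36.2, 34.0 and 59.6 CPM in THRB KO. The groups at ZT14 and ZT22 did not overlap, with folds of 3.24 and 2.52 between the means.

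Sdf2l1 (chromosome 16, 17130138 to 17132383), a partner of ER co-chaperones that keeps unfolded proteins in solution, had 1 of the widest swings. At ZT10 it was at 17.6, 18.4 and 17.8 CPM in THRB WT and at 19.4, 14.6 and 17.6 CPM in THRB KO livers. At ZT18 it was at 152, 62.8 and 59.3 CPM in THRB WT and at 127, 71.5 and 44.1 CPM in THRB KO. Every mouse of ZT18 lay above every mouse of ZT10, with folds of 5.10 and 4.71 between the means. Without mouse a of ZT18 the highest mean was 3.87-fold the lowest in THRB WT and 3.37-fold in THRB KO.

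Creld2 and Pdia4 act on disulfide bonds in the ER. Creld2 (chromosome 15, 88819646 to 88826683) was at 22.9, 15.1 and 18.3 CPM at ZT6 and at 92.6, 151 and 130 CPM at ZT14 in THRB WT livers. THRB KO livers had 20.8, 24.6 and 21.0 CPM at ZT6 and 61.7, 103 and 53.1 CPM at ZT14. These groups did not overlap in either genotype. At ZT18 it reached 238, 72.7 and 65.2 CPM in THRB WT and 198, 77.8 and 50.01 CPM in THRB KO. It had the largest ratio of the highest to the lowest mean in the set, 6.67-fold in THRB WT and 6.11-fold in THRB KO, and 6.62-fold and 4.09-fold without mouse a of ZT18.

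Pdia4 (chromosome 6, 47796141 to 47813430), a protein disulfide isomerase also called ERp72, was at 105, 127 and 125 CPM at ZT10 and at 413, 242 and 244 CPM at ZT18 in THRB WT livers. THRB KO livers had 111, 121 and 103 CPM at ZT10 and 396, 251 and 228 CPM at ZT18. In each genotype ZT10 lay below ZT6, and ZT6 below all the other times, without overlap. The folds between the highest and lowest means were 2.51 and 2.61, and 2.06 and 2.22 without mouse a of ZT18.

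Herpud1 had the earliest course. Herpud1 (chromosome 8, 94386438 to 94395377) encodes HERP, an ER membrane protein that organises the degradation of misfolded proteins. It climbed in THRB WT livers from 239, 194 and 202 CPM at ZT2 to 559, 404 and 525 CPM at ZT10 and 555, 714 and 708 CPM at ZT14. THRB KO livers had 222, 332 and 146 CPM at ZT2, 548, 429 and 505 CPM at ZT10 and 474, 542 and 406 CPM at ZT14. By ZT22 it was down to 224, 149 and 160 CPM in THRB WT and 196, 132 and 194 CPM in THRB KO. It was thus already high at the end of the light phase, at ZT10, when Hspa5, Hsp90b1 and Sdf2l1 were near or at their lowest means. The highest mean was 3.70-fold the lowest in THRB WT and 2.84-fold in THRB KO.

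At the change from light to dark, 8 of the 10 genes had all 3 mice of ZT14 above all 3 mice of ZT10 in THRB WT livers, against 11.8% of all tested genes. Xbp1 and Herpud1 were the others. Among THRB KO livers 7 genes did, against 11.9% of all genes, with Atf4 also out.

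The 24-h curves placed the genes in a sequence from the end of the light phase to late in the dark. The peak in THRB WT livers was at ZT 12.0 ± 0.51 for Herpud1, 14.2 ± 1.12 for Dnajb9 and 16.3 ± 0.98 for Ddit3 (± SE, n = 18). Creld2 (17.8 ± 0.82), Hspa5 (18.1 ± 0.84) and Hsp90b1 (18.6 ± 0.86) followed in the middle of the dark phase. Sdf2l1 (19.5 ± 0.65), Pdia4 (19.7 ± 0.68) and Atf4 (21.1 ± 0.76) came last. Neighbouring peaks from Dnajb9 to Atf4 overlapped within 1 SE, whereas Herpud1 stood apart from the next. Without the ZT18 libraries of mouse a this order stayed the same, from 11.6 ± 0.47 for Herpud1 to 21.3 ± 0.83 for Atf4. The highest group mean in THRB WT was then at ZT14 for all of these genes but Pdia4 (ZT22) and Atf4 (ZT18). The sequence is thus one of fitted curves and not of the sampling times with the highest means. Peaks in THRB KO livers of the 7 genes that passed fell at 11.7 ± 0.65 for Herpud1, 18.6 ± 0.99 for Creld2, 19.0 ± 0.96 for Hspa5, 19.5 ± 0.90 for Hsp90b1, 20.5 ± 0.61 for Pdia4, 20.7 ± 0.74 for Sdf2l1 and 23.7 ± 1.02 for Atf4. The curves of the 10 genes had a median peak-to-trough ratio of 2.33 (THRB WT) and 2.04 (THRB KO), against 1.34 and 1.31 over all tested genes. The widest was Creld2, with 5.51 and 4.17, and the narrowest after Xbp1 was Atf4, with 1.40 and 1.41. Without the ZT18 libraries of mouse a, Creld2 had 4.53 and 3.31. The peak of Atf4 in THRB KO then fell just after lights on, at ZT 0.54 ± 0.90.

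**Figure D2:**
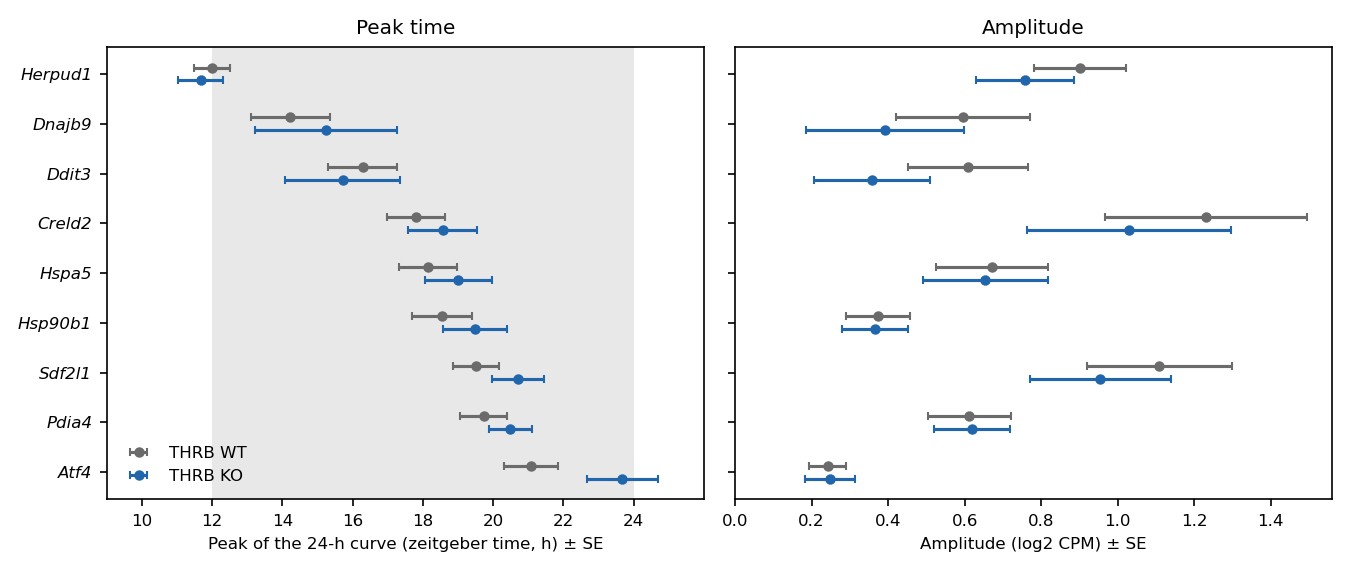
Peak of the fitted 24-h curve in hours of zeitgeber time (left, darkness shaded) and its amplitude in log2 CPM (right) for the 9 genes with a rhythm in THRB WT livers, each with ± SE over 18 livers, in grey for THRB WT and blue for THRB KO. Peaks ran from 12.0 h for Herpud1 to 21.1 h for Atf4 in THRB WT, and the error bars of the genotypes overlapped in peak time for all genes but Atf4.

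Next, the genotypes were compared. With sampling time in the model, none of the 10 genes passed the test between THRB KO and THRB WT livers, against 0.950% of all tested genes (171 genes). The log2 fold changes of THRB KO minus THRB WT ran from -0.25 for Creld2 to 0.00 for Herpud1, with 9 of 10 below 0 and a median of -0.08, against a median of -0.001 over all genes. Adjusted p-values ran from 0.582 for Hspa5 to 0.996 for Herpud1. At an unadjusted p under 0.05 the edgeR test had 0 of the 10 genes among 2169 of all genes, and DESeq2 also called 0 of the 10. The 95% intervals of the 10 differences lay between -0.66 and 0.26 on the log2 scale. For Hspa5 the difference was -0.18 ± 0.12 (SE), with an interval of -0.41 to 0.06. For Atf4, with the narrowest interval, it was -0.08 ± 0.05, from -0.18 to 0.03. These values come from fits without pairing. An alternative fit, with livers paired by letter at each time, did call 1 of the 10 genes, Hspa5. It had 2 of the 10 at an unadjusted p under 0.05. The meaning of the letters is not known, so the result for Hspa5 depends on whether pairing is justified.

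With the sampling times pooled, the 10 genes were all below 0, from -0.33 to -0.04, and none passed (adjusted p from 0.955 to 0.990), against 0.361% of all genes. At an unadjusted p under 0.05 the test had 0 of the 10 genes among 1259 of all genes, and DESeq2 called 0 of the 10. The paired fit that called Hspa5 is the same fit for this comparison.

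At single sampling times none of the 10 genes passed, and few genes did among all tested: 0.0278% at ZT2, 0.0111% at ZT6, 0.0167% at ZT10, 0.0167% at ZT14, 0.0222% at ZT18 and 0.0222% at ZT22. At an unadjusted p under 0.05 the only one of the 10 genes was Sdf2l1 at ZT14. At ZT14 the fold changes had a median of -0.40 and 9 of 10 were below 0, all but Xbp1 at 0.09, whereas at ZT6 9 of 10 were above 0, with a median of 0.06. The medians over all tested genes were -0.001 at ZT14 and 0.002 at ZT6. The 10 genes were measured in the same mice and several often shared the highest mouse of a group, so their signs are not separate observations. Sdf2l1 was at 52.8, 82.2 and 73.0 CPM in THRB WT and at 31.5, 46.8 and 33.9 CPM in THRB KO livers at ZT14. Its log2 fold change of -0.89 had an interval of -1.62 to -0.16, with an adjusted p of 0.928. Creld2 followed with -0.77 (-1.82 to 0.27, edgeR adjusted p = 0.940). All 3 THRB KO mice lay below all 3 THRB WT mice at ZT14 for 4 of the 10 genes (Atf4, Ddit3, Herpud1 and Sdf2l1), against 5.39% of all tested genes. For Herpud1 the THRB KO mice had 474, 542 and 406 CPM where the THRB WT mice had 555, 714 and 708 CPM. At ZT2 the THRB KO mice lay above the THRB WT mice for Atf4 alone, against 6.21% of all genes. At the other 4 times no gene of the set was apart in either direction.

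**Figure D3:**
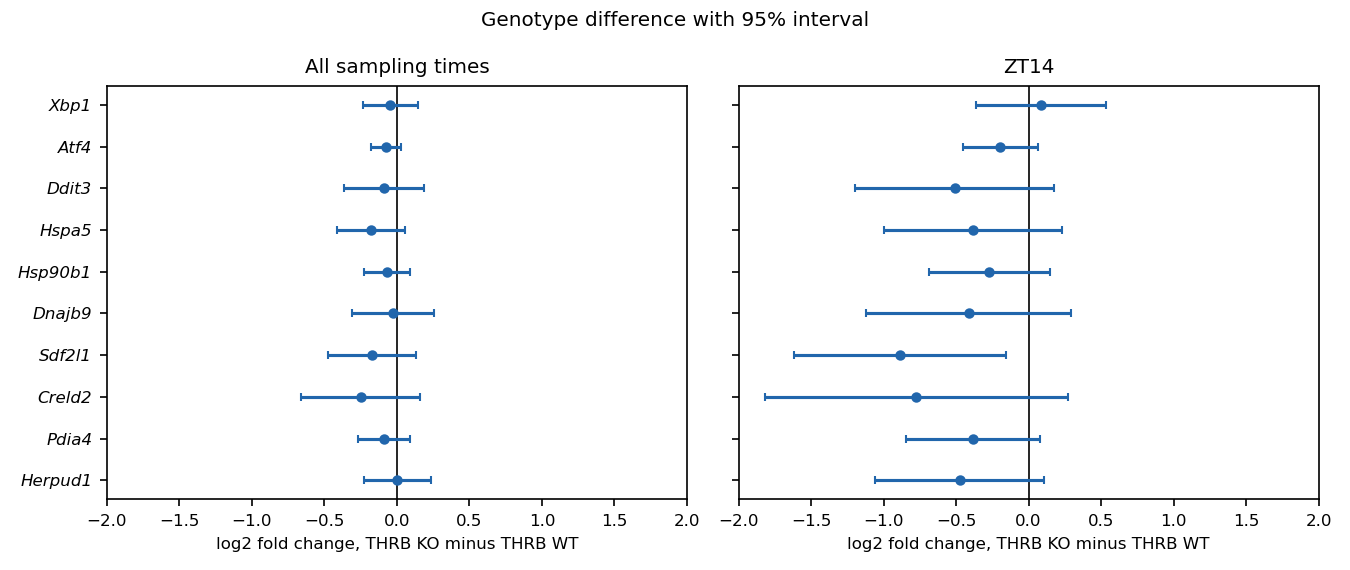
Log2 fold change of THRB KO minus THRB WT (x axis) with its 95% interval for the 10 genes, over all sampling times with time in the model (left, 36 livers) and at ZT14 alone (right, 3 against 3). Over all times each interval held 0, and at ZT14 9 of 10 points lay left of 0, with the interval of Sdf2l1 alone leaving it out.

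The rhythm itself was compared in a joint model. None of the 10 genes passed the test for a different 24-h curve between the genotypes (edgeR adjusted p = 1.0 for each), and neither did any of the 17994 genes (0%). An unadjusted p under 0.05 was reached by 0 of the 10 and by 553 of all genes, and DESeq2 called 0. The fit paired by letter had 2 of the 10 and 988 of all genes at that level, and called 0 of the 10. A genotype effect that varied between the sampling times was likewise called for none of the 10 and for 0% of all genes, with 484 genes at an unadjusted p under 0.05, and DESeq2 called 0 there too. Pairing by letter gave 1 of the 10 and 861 of all genes at an unadjusted p under 0.05 for this effect, and called 0. As a description, the mean level of the curve was lower in THRB KO for 9 of 10 genes (median difference -0.08 log2 CPM) and its amplitude smaller for 8 (median -0.08 log2 CPM). The peak was later in THRB KO for 7 of the 9 genes with a rhythm in THRB WT, with a median of 0.86 h. No interval of these differences left out 0, and those of the peak times reached from -4.48 to 5.61 h. The intervals of the amplitudes reached from -0.97 to 0.57 log2 CPM, so sizeable differences in either direction were not excluded. The largest shift was that of Atf4, 2.60 ± 1.28 h later in THRB KO (-0.02 to 5.21 h). The interval of Atf4 left out 0 when mice a, or only those of ZT18, were left out, and that was the only such change. Later fitted peaks in THRB KO were not particular to these genes. All clock genes examined but Per1 also peaked later there, with small shifts such as those of Arntl (ZT 22.0 and 22.2) and Per3 (ZT 12.1 and 12.9). The shift over all tested genes was not determined.

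Mice of the same group differed widely for these genes. The SD of log2 CPM within groups had a median of 0.385 over the 10 genes, against 0.152 over the 9470 genes with a mean of at least 5 CPM. It was highest for Creld2 (0.694) and lowest for Atf4 (0.158). Of their variance, a median of 71.9% lay between the 12 groups, against a median of 54.2% over those 9470 genes. It ran from 22.8% for Xbp1 to 81.2% for Sdf2l1. The mouse with the highest Hspa5 of its group was also the highest for Dnajb9 in 10 of the 12 groups, for Hsp90b1 and Pdia4 in 9, for Creld2 in 8 and for Sdf2l1 in 7. For Herpud1 it was so in 6, for Atf4 in 5, for Ddit3 in 4 and for Xbp1 in 3. With 3 mice per group, unrelated genes also share the highest mouse in some groups, and no such count was made over all genes. At ZT14 mouse b was the highest for Hspa5 in both genotypes, with 1768 and 1307 CPM.

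**Figure D4:**
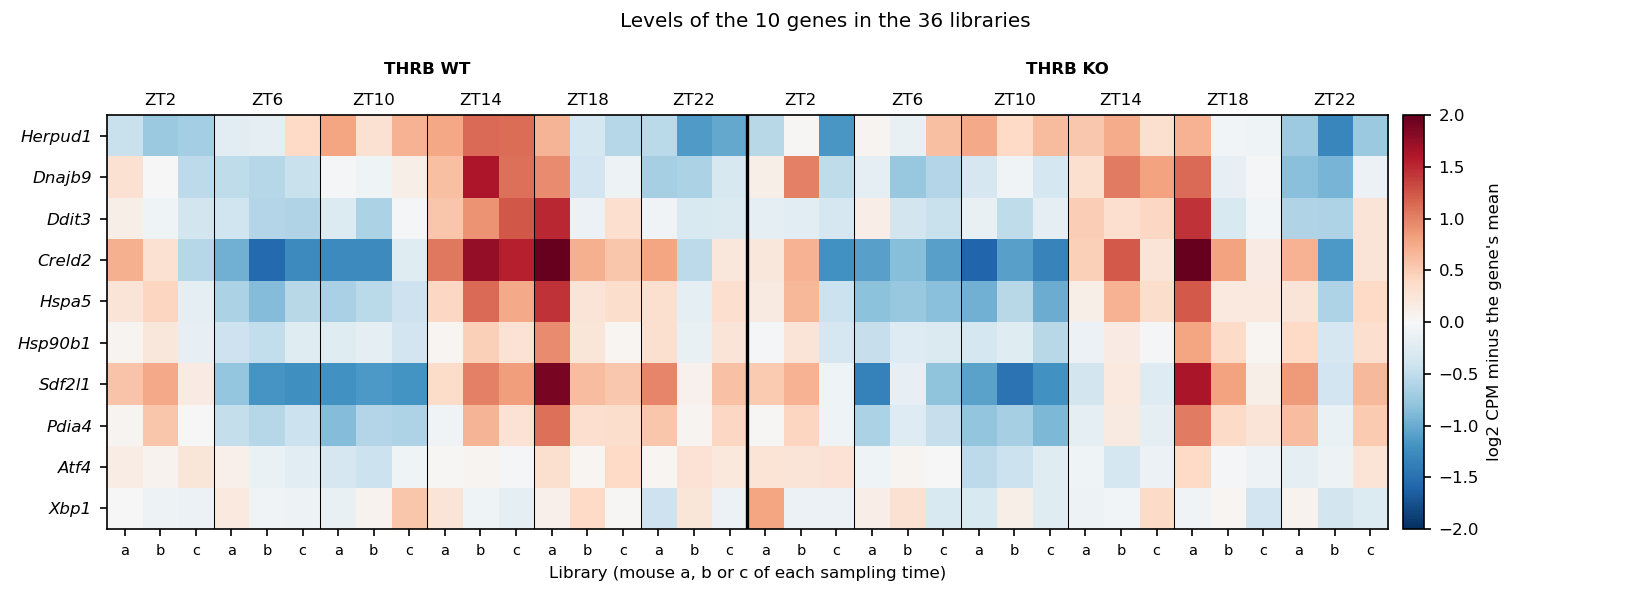
Log2 CPM minus the mean of the gene over the 36 libraries (colour scale from -2.0, blue, to 2.0, red), with 1 column per library, ordered by genotype, sampling time and mouse, and 1 row per gene, ordered by peak time. The ZT18 libraries of mouse a were the reddest columns in both genotypes, ZT6 and ZT10 were blue for Hspa5, Sdf2l1, Pdia4 and Creld2, and Herpud1 turned red before them at ZT10.

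Over all 36 libraries the mean of the 10 scaled genes was tracked most closely by Creld2 (Pearson r = 0.967) and Hspa5 (0.961) within the set and least by Herpud1 (0.243) and Xbp1 (0.182). Each of the 10 genes is itself part of this mean, which raises its r, unlike that of genes outside the set. Among 9460 other genes, the 8 with the highest r were Syvn1 (0.985), Ubfd1 (0.951), Hyou1 (0.951), Manf (0.938), Gmppb (0.936), Tmem214 (0.935), Tmed3 (0.932) and Alg12 (0.923). Syvn1 encodes the ubiquitin ligase HRD1 of ER-associated degradation, Hyou1 a large ER chaperone, Manf a factor secreted under ER stress, and Gmppb and Alg12 are enzymes of glycan building. The correlations describe libraries that share sampling times and, at ZT18, the libraries of mouse a. Of these 8 genes, 5 had a promoter in the RefSeq table, and Syvn1 and Alg12 carried the first ER stress element there. They were chosen for likeness to genes with a rhythm in the same libraries, so their own rhythms are no separate result. None passed the test between genotypes (adjusted p from 0.234 to 0.801).

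Other genes of the pathway were taken from 7 lists and are counted here without the 10 genes. The share of all tested genes with a 24-h rhythm, 35.1% for THRB WT and 31.5% for THRB KO livers, is the background for each count. Of 18 chaperones and co-chaperones of the ER, 13 had a 24-h rhythm in each genotype. They included the lectin chaperone Calr, with a peak at ZT 20.8 and a peak-to-trough ratio of 1.89 in THRB WT livers (ZT 21.5 and 1.73 in THRB KO), and the BiP co-chaperones Dnajb11 (ZT 19.2, 1.98-fold in THRB WT) and Dnajc3 (ZT 17.9, 1.52-fold). The LDL receptor chaperone Mesd peaked at ZT 17.5 (1.502-fold). Of the 13, 11 peaked in darkness in each genotype, as did, of all rhythmic genes, 48.8% with THRB WT and 48.6% with THRB KO livers. Of 17 protein disulfide isomerases and oxidases tested, 10 had a rhythm with THRB WT and 9 with THRB KO livers, among them Pdia3 (ZT 19.5, 1.73-fold in THRB WT), Pdia6 (ZT 21.1, 1.77-fold), Erp29 (ZT 20.7, 1.52-fold) and Txndc5 (ZT 15.9, 1.42-fold). Here 9 of 10 and 8 of 9 peaked in darkness.

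Genes of removal were rhythmic about as often as all genes. Of 22 genes of ER-associated degradation tested, 7 were rhythmic in each genotype, near the 35.1% and 31.5% of all genes. Of these, 6 peaked in darkness in THRB WT and 4 in THRB KO, against 48.8% and 48.6% of all rhythmic genes. Here Syvn1 peaked in THRB WT at ZT 17.3 (2.86-fold), and the E2 enzyme Ube2g2 (ZT 17.99, 1.70-fold), the mannosidase-like Edem1 (ZT 17.7, 1.41-fold) and the HRD1 partner Sel1l (ZT 17.7, 1.42-fold) were near it. Of 30 genes of entry into the ER and glycosylation, 12 had a rhythm with THRB WT and 13 with THRB KO livers, and 12 of these peaked in darkness in each genotype. Uggt1, the glucosyltransferase that senses misfolded glycoproteins, peaked at ZT 18.9 (1.48-fold), the oligosaccharyltransferase subunits Ostc and Rpn1 at ZT 19.4 and 20.6, and the translocon-associated Ssr1 at ZT 19.6. Of 10 sensors and transcription factors, 3 were rhythmic in each genotype, no more than the share of all genes. They were Atf6b (ZT 19.7, 1.65-fold in THRB WT), Creb3l1 (ZT 22.0, 2.52-fold) and the ATF6 protease Mbtps1 (ZT 5.98, 1.25-fold). Atf6 itself missed the threshold (edgeR adjusted p = 0.0570 in THRB WT).

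PERK and ATF4 targets of the integrated stress response, which amino acid shortage also raises, peaked in both phases. Of 31 tested, 18 passed the rhythm test for THRB WT and 15 for THRB KO livers, and 7 in each genotype peaked in darkness, 7 of the 18 and 7 of the 15, against 48.8% and 48.6% of all rhythmic genes. Trib3, a pseudokinase that dampens ATF4 output, peaked at ZT 6.59 ± 0.42 with a peak-to-trough ratio of 9.58 in THRB WT, and at ZT 7.30 ± 0.60 with 5.53 in THRB KO. Chac1, which degrades glutathione, peaked at ZT 6.48 ± 0.76 (6.83-fold) and 7.01 ± 0.77 (3.96-fold). The factor Atf5 peaked at ZT 1.63 ± 0.43 (2.91-fold) and 1.88 ± 0.73 (2.12-fold), and the apoptosis gene Bcl2l11 at ZT 8.93 ± 0.60 (2.31-fold) and 9.23 ± 0.61 (2.41-fold). Of 6 substrates of IRE1-dependent decay, 2 passed for THRB WT and 4 for THRB KO livers, and the matrix gene Sparc passed in both (ZT 20.9 and 23.6).

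**Figure D5:**
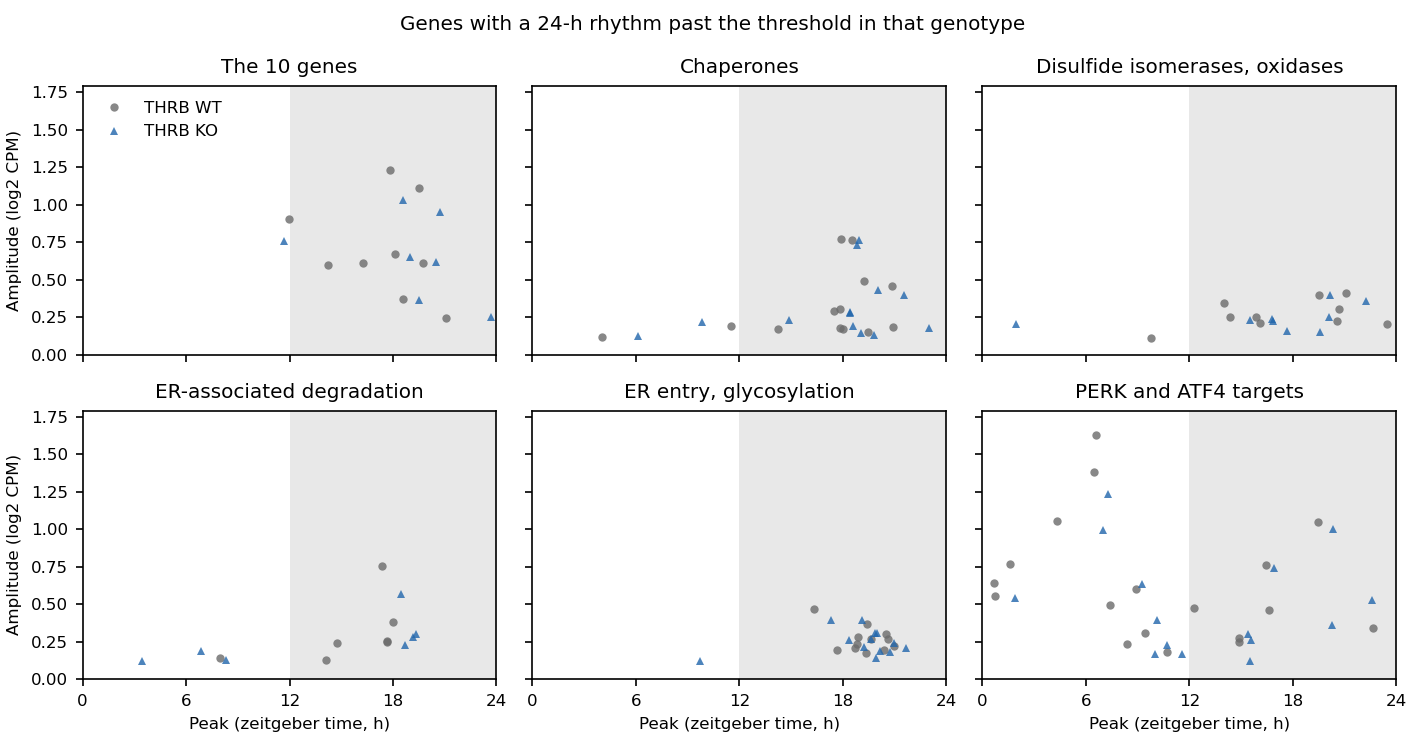
Amplitude in log2 CPM (y axis) against the peak of the 24-h curve in hours of zeitgeber time (x axis, darkness shaded) for genes with a rhythm in that genotype, THRB WT as grey circles and THRB KO as blue triangles, in 6 groups of genes. Points of the 10 genes, chaperones, isomerases, degradation and entry genes lay mostly in darkness. Those of the PERK and ATF4 targets lay in both phases, 7 of 18 in darkness in THRB WT and 7 of 15 in THRB KO, with Trib3 highest.

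The genotype effect with time in the model was called in none of the genes of these 7 lists. The smallest adjusted p-values were 0.0761 for the thioredoxin-like Tmx3 (log2 fold change 0.13), 0.0957 for the degradation gene Edem2 (-0.16) and 0.105 for Atf6b (-0.12). Manf was at 135 ± 67.1 CPM in THRB WT and 106 ± 61.0 CPM in THRB KO livers (SD, n = 18; log2 fold change -0.36, adjusted p = 0.234). The medians of the lists ran from -0.06 for entry and glycosylation to -0.01 for the sensors. None of these genes was called in the pooled comparison, in the comparison of the 24-h curves or in the test of an effect that varied with time.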

How the data were processed

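Polyadenylated RNA of 36 livers, 3 separate mice per genotype and sampling time, was sequenced from libraries without strand information. Per the labels and the study's methods, the authors aligned reads with HISAT2 and made gene counts with featureCounts, and deposited these counts unnormalized with coordinates on GRCm38. The annotation release and tool versions are not given in the sources used here. The authors' own comparisons were not used.

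Testing was done with edgeR 4.0.16 (TMM factors, quasi-likelihood F test, R 4.3.3) on genes whose counts summed to 100 or more. p-values were adjusted by Benjamini-Hochberg over the 17994 genes, with a threshold of 0.05. Peak times, amplitudes and their 95% intervals came from 24-h cosine fits on log2 CPM (prior count of 2) by least squares. The models were tested on simulated counts. Copies of the 10 genes were searched with BLAST 2.17.0 (at least 95% identity over 80% of the copy), and those found had 0 counts. The 10 genes and the pathway lists were chosen with earlier results of these data known. All 10 genes are described. Of each list, up to 4 genes with the smallest p in the THRB WT rhythm and up to 3 in the genotype effect could be named, with the 8 genes most like the mean of the 10. Alternatives were DESeq2 1.42.0, its size factors, other filters, leaving out the mice of 1 letter, RNA integrity as a covariate, a replicate block and, chosen after seeing the data, leaving out the ZT18 libraries of mouse a.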

Additional observations from a re-analysis of the deposited data

Results flagged for a closer look

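Atf4 moved in opposite directions at ZT2 and ZT14. At ZT2 all 3 THRB KO mice (170, 168 and 172 CPM) lay above all 3 THRB WT mice (155, 147 and 166 CPM), a log2 fold change of 0.12. At ZT14 all 3 THRB KO mice (133, 110 and 129 CPM) lay below all 3 THRB WT mice (143, 146 and 136 CPM), a log2 fold change of -0.20. The test of a genotype effect that varies between sampling times did not call Atf4 (edgeR adjusted p = 1.0), and neither single time passed (adjusted p = 0.912 and 0.940). At ZT2 and ZT14 such a separation was seen in 6.21% and 5.39% of all tested genes. Single mice were not tested as outliers within the groups of 3.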

How the results depend on the processing

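The letters a, b and c were shared by the groups. The deviations of same-letter livers correlated at over 0.1 in 16 of 18 pairs of genotypes at 1 time (from -0.09 to 0.40). Deviations of same-letter livers thus went together to a degree in most pairs. Pairs of different letters are not given for comparison, so whether this goes with the letter was not tested. The labels do not say what a letter marks, so the main fits did not pair the mice by letter. A replicate block of mice with the same sampling time and letter, 18 pairs in all, takes up the sampling time, so it gave a single fit in place of both the genotype effect with time in the model and the pooled comparison. This fit called 1 of the 10 genes, Hspa5 (log2 fold change -0.19 ± 0.05, adjusted p = 0.042), where the fits without it called 0. The block raised the calls among all genes from 171 and 65 to 387, and from 0 to 1 for the difference of the 24-h curves. For the tests within a genotype the letter alone was the block. It changed no other call for the 10 genes.

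Leaving out the mice of 1 letter gave 3 to 7 genes with a 24-h curve in THRB KO livers, 6 to 8 in THRB WT, 6 to 7 genes that differed between sampling times in THRB WT and 6 in THRB KO. The genotype difference of Xbp1 ran from -0.12 without mice a to 0.0065 without mice c, and that of Herpud1 from -0.066 without mice b to 0.052 without mice a, and none of these values passed the test. Among all genes the adjusted genotype effect was called in 40 to 81 genes on leaving out a letter and in 315 with DESeq2, and the pooled effect in 16 to 24 genes. The time-of-day effect was then called in 2194 to 2722 (THRB WT) and 1909 to 2325 genes (THRB KO), and the 24-h curve in as few as 3750 and 3050. The size factors of DESeq2, filterByExpr and the RNA integrity number changed no call of the 10 genes. Leaving out a letter also leaves 2 mice per group, and the cause of the other changes was not tested. Of the 10 genes Ddit3 had the fewest counts (192 to 788 per library).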
